A study of Cricetiscus sungorus with 24 samples.

Results

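The kidneys of male Siberian hamsters were compared between 12 and 28 weeks of short photoperiod, to ask which RNAs differ once animals left in short days revert toward the long-day state without any change of light. The comparison set 4 libraries taken after 28 weeks (SP28wk) against 4 taken after 12 weeks (SP12wk), with 4 libraries of hamsters kept in long photoperiod (LP) given beside them. For each of 9681 genes the transcript with the most reads over the 12 libraries was taken. The genes described are the 796 with at least 60 reads over the 12 libraries, and a level is the share of a library's reads on these transcripts, in reads per 10000.

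All hamsters were adult males. LP animals had 16 h of light per day, and SP12wk and SP28wk animals had been moved from LP to 8 h of light for 12 or 28 weeks. The paper describes collection at successive intervals, so that SP28wk animals were sampled later. Age, collection date and time in short days therefore cannot be told apart in this comparison. No animal of these groups received prolactin or saline. The series holds 24 libraries, and the 12 of a second experiment on females were not used here. RNA came from the piece of each transversely cut kidney that was not sectioned for histology, and how much cortex and medulla it held is not given. A gene's share depends both on how many cells of a type were present and on how much RNA each held. Fewer cells of a type and less RNA per cell cannot be told apart. Each library was 1 animal, so that the spread between replicates holds the spread between animals together with that of read sampling and library preparation.

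Siberian hamsters regress their gonads and lose body mass when the day shortens. After some months of unchanged short days they stop responding to the photoperiod, a state called refractoriness, and return to the summer state on their own. In the kidney, the proximal tubule reabsorbs most of the filtered salt, glucose and amino acids, and its cells carry many mitochondria that burn fuel through the respiratory chain to drive the sodium pump. 

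The depth was low. The reads on 1 transcript per gene came to 15687 to 35388 per SP12wk library, with a median of 22194, and to 24102 to 57585 per SP28wk library, with a median of 30154. A single read was worth 0.283 to 0.637 per 10000 in SP12wk and 0.174 to 0.415 in SP28wk, and a gene with no read could have had up to 3 reads, or 0.848 to 1.91 and 0.521 to 1.24 per 10000. These limits cover counting error only. The 796 genes held between 75.4% and 77.8% of the reads of each SP library, and 636 of them had reads in all 12 libraries. Of the 796, 163 were predicted or unnamed mouse gene models, and 65 had the same counts in every library as another of the genes, in 25 patterns, so that hamster reads on such copies cannot be assigned to one of them. LP replicate 2 stood apart, with 119 of the 796 genes at 0 and correlations with the other libraries between 0.242 and 0.673 across genes. It entered no contrast, but it counted toward the choice of genes and transcripts, the filter, the scaling and the estimate of the spread. The lowest gene inside the limit had 60 reads and the highest outside had 59, and 144 genes had between 50 and 59.

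Genes that were called were all higher after 28 weeks. In edgeR's quasi-likelihood test over 5086 genes, 7 genes had a Benjamini-Hochberg adjusted p under 0.05, or 0.138% of the genes tested. They fell into 3 sets of like counts, the small RNA pair Snora73a and Snora73b, the group of Rpl41, Gm31458 and Herpud2, and outside the 796 genes the pair Akr1b3 and Gm6644. The last pair had no read in SP12wk and entered the test only through reads in SP28wk and LP. No gene was called lower, and 76 genes tested were lower at an unadjusted p under 0.05. At an unadjusted p under 0.05, 48 of the 796 genes (6.03%) were higher and 4 (0.503%) were lower, beside 4.6% higher and 1.49% lower of all genes tested. The groups did not overlap for 26 of the 796 genes (3.27%) with every SP28wk library above every SP12wk library and for 36 (4.52%) with every SP28wk library below, beside 1.85% and 1.53% of all genes tested.

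The split between higher and lower depended on the scaling. With the TMM scaling of the test, which adjusts library sizes by a trimmed mean over genes, the median log2 fold change of the 796 genes was 0.14, and with library totals it was -0.03. The TMM factors ranged from 0.884 to 1.14 in SP12wk and from 0.770 to 0.975 in SP28wk, and the lowest belonged to the deepest library, SP28wk replicate 4. With library totals, 30 genes were higher and 20 lower at an unadjusted p under 0.05, in place of 48 and 4. Fold changes are therefore also given against the median of the 796 genes, and shares are of library totals. The samples in the fit mattered as well. Fitted on the 8 SP libraries alone, 20 of the 796 genes were called, all higher, with 0.433% of the genes tested called higher. Fitted on the 8 SP libraries with library totals, 15 were called higher and 2 lower, with 0.334% of the genes tested called higher and 0.0393% lower.

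**Figure D1:**
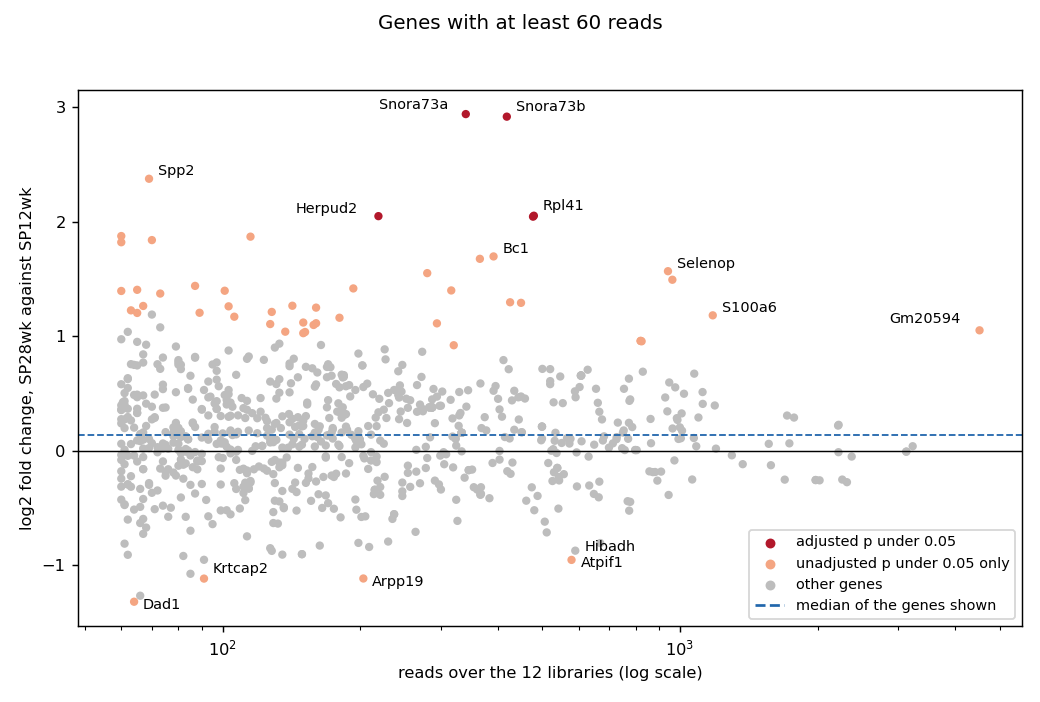
Log2 fold change of SP28wk against SP12wk (edgeR, TMM scaling, y axis) for the 796 genes by their reads over the 12 libraries (x axis, log scale), 1 point per gene; dark red points have an adjusted p under 0.05, and the dashed line is the median of the genes shown, 0.14. The 5 called points lie at 2.04 or above, and the 4 genes below zero with an unadjusted p under 0.05 are Arpp19, Dad1, Atpif1 and Krtcap2.

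Of the 796 genes the largest fitted fold changes were those of Snora73b and Snora73a, a pair of near-identical small nucleolar RNAs known for their part in the processing of ribosomal RNA. Snora73b stood at 1.23, 3.82, 3.01 and 3.96 reads per 10000 in SP12wk, at 5.14, 16.6, 32.0 and 25.9 in SP28wk, and at 8.94, 5.61, 3.88 and 15.1 in LP. Every SP28wk library lay above every SP12wk library, and the lowest SP28wk library was replicate 1. The mean was 3.00 ± 1.26 (SD, n = 4) in SP12wk and 19.9 ± 11.7 (SD, n = 4) in SP28wk. Snora73b rose by a log2 fold change of 2.92 (SE 0.51, edgeR adjusted p = 3.6e-05), and Snora73a by 2.94 (SE 0.52, edgeR adjusted p = 3.6e-05). The pair had correlated shares over the 12 libraries (r = 0.998), with counts up to 29 reads apart in a library. How far the pair shares reads was not tested, so they are not taken as separate results. LP overlapped both SP groups. With counts summed over all transcripts of a gene neither was called, and their adjusted p over the 20 alternatives reached 0.672.

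Rpl41, which encodes the shortest protein of the large ribosomal subunit, was called together with the predicted gene Gm31458 and with Herpud2, a membrane protein with a ubiquitin-like domain. Rpl41 stood at 6.95, 5.10, 12.5 and 3.11 reads per 10000 in SP12wk, at 8.30, 15.8, 38.8 and 33.7 in SP28wk, and at 6.12, 0.561, 0.555 and 5.44 in LP. SP28wk replicates 3 and 4 were far above the rest, and replicate 1 lay below SP12wk replicate 3, so that the groups overlapped. Rpl41 rose by a log2 fold change of 2.05 (SE 0.47, edgeR adjusted p = 0.0132). Gm31458 differed from it by at most 2 reads in any library, and Herpud2, at 2.05 (SE 0.50, edgeR adjusted p = 0.0312), followed it across the 12 libraries (r of at least 0.991 among the 3). Rpl41 did not pass the threshold without SP12wk replicate 1, 2 or 4 or without SP28wk replicate 3 or 4, with log2 fold changes of 1.77 to 2.03. It was also lost with DESeq2, limma-voom and counts summed over transcripts. The filter of 8 of 12 libraries and the fit on genes of at least 60 reads lost it too, making 10 of 20 alternatives. Herpud2 was lost under 15 of the 20. These added the fits without SP12wk replicate 3, without a filter, with TMMwsp scaling, with library totals and with a replicate block.

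Akr1b3, aldose reductase, which makes the osmolyte sorbitol in the renal medulla, had 30 reads in all and so fell short of the 60. It had 0 reads in all 4 SP12wk libraries, 0, 7, 15 and 7 reads in the SP28wk libraries, and 1 read in LP. It was called higher (edgeR adjusted p = 0.00377), as was Gm6644, whose counts differed from it by at most 1 read. Both just met the filter of at least 4 of 12 libraries, through SP28wk replicates 2, 3 and 4 and LP replicate 4. With no read in SP12wk they entered the test mainly by being high in SP28wk, so that the filter itself favoured this direction. SP28wk replicate 1 was at 0 like the SP12wk libraries. Without SP28wk replicate 3 or SP12wk replicate 4, with DESeq2, or with counts summed over transcripts, neither gene was called.

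A second tier of genes was higher in SP28wk without passing the threshold in the fit over the 3 groups. Selenop encodes the plasma protein that carries selenium to tissues. Selenop stood at 15.1, 18.5, 11.5 and 18.1 reads per 10000 in SP12wk, at 72.7, 30.3, 35.1 and 33.2 in SP28wk, and at 42.3, 17.9, 14.98 and 26.4 in LP. All SP28wk libraries were above all SP12wk libraries, and replicate 1 was far above the other SP28wk libraries. The log2 fold change was 1.57 (SE 0.47, edgeR adjusted p = 0.312), and with the 8 SP libraries alone it was 1.59 (edgeR adjusted p = 9.6e-07, which over all alternatives ranged up to 0.918). Ccdc152, a gene that overlaps Selenop, had a log2 fold change of 1.49 (SE 0.47), and since the counting is not known to use strand, reads of the pair cannot be told apart.

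S100a6, a small calcium-binding protein, was the gene with most reads among those on the injury and dedifferentiation list. It stood at 19.6, 30.0, 28.1 and 18.7 reads per 10000 in SP12wk, at 54.5, 51.9, 49.1 and 37.9 in SP28wk, and at 32.0, 10.1, 37.7 and 60.2 in LP. The SP groups did not overlap, and the mean share was 24.1 ± 5.78 (SD, n = 4) in SP12wk and 48.3 ± 7.34 (SD, n = 4) in SP28wk. The log2 fold change was 1.18 (SE 0.47, edgeR adjusted p = 0.614), or 1.04 above the median of the 796 genes, and with the 8 SP libraries alone 1.22 (edgeR adjusted p = 0.00031). Over all alternatives its log2 fold change ranged from 1.01 to 1.23 and its adjusted p from 0.00031 to 1.00.

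Bc1, a short non-coding RNA of rodents that gave rise to a family of repeats in their genomes, headed a set of 8 genes with like profiles. Its shares were 10.2, 6.37, 2.51 and 4.52 reads per 10000 in SP12wk, 22.9, 21.2, 20.3 and 6.95 in SP28wk, and 4.70, 21.3, 17.2 and 13.98 in LP. SP28wk replicates 1 to 3 lay above every SP12wk library, and replicate 4 lay among them. The log2 fold change was 1.70 (SE 0.48, edgeR adjusted p = 0.232), and 1.71 (edgeR adjusted p = 1e-04, up to 1.00 over all alternatives) with the 8 SP libraries alone. Gm33937, Lrrc17, Gm32262, Akap5, Slc52a2, Cnot3 and Pex13 followed it over the 12 libraries, with pairwise r between 0.696 and 0.993 (median 0.930), and Gm33937 differed from Bc1 by at most 8 reads in a library. These are correlations over libraries of the same mapping, and whether the genes share reads was not tested.

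Gm20594, a predicted gene, had the most reads of all, 4517 over the 12 libraries. Its shares were 119, 116, 62.2 and 69.5 reads per 10000 in SP12wk and 167, 207, 144 and 152 in SP28wk, without overlap, and LP spanned 119 to 262. The log2 fold change was 1.05 (SE 0.50, edgeR adjusted p = 0.74), and 1.07 (edgeR adjusted p = 4.2e-05, up to 1.00 over all alternatives) with the 8 SP libraries alone. Spp2, a secreted phosphoprotein, had few reads, at 0, 0.637, 0 and 1.41 per 10000 in SP12wk against 3.16, 4.56, 1.43 and 3.13 in SP28wk. Its groups barely separated, and its log2 fold change of 2.37 (SE 0.68, edgeR adjusted p = 0.232) rested on shares near those of a few reads. Ndufb7, a subunit of complex I, was at 0.409, 0.637, 4.52 and 1.70 in SP12wk against 1.58, 5.39, 6.57 and 9.03 in SP28wk, with overlap.

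**Figure D2:**
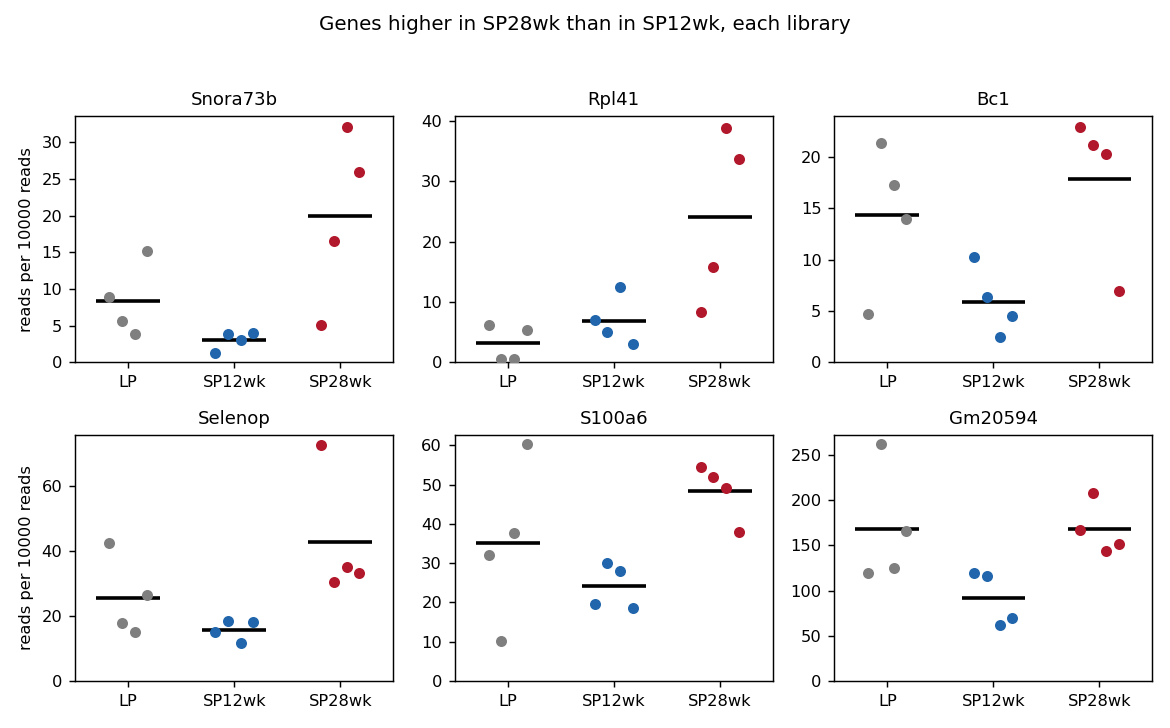
Share of each of the 12 libraries (y axis, reads per 10000 reads of the library) for 6 genes by group, with 1 point per library and a bar at the mean of 4. The 4 SP28wk points lie above the 4 SP12wk points for Snora73b, Selenop, S100a6 and Gm20594, and 1 SP28wk library lies within the SP12wk range for Rpl41 and Bc1.

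Of the 796 genes, 4 were lower in SP28wk at an unadjusted p under 0.05. No lower gene among the 796 had an adjusted p under 0.72 in the fit over the 3 groups. Arpp19, an inhibitor of protein phosphatase 2A that acts at entry into mitosis, stood at 10.2, 7.65, 8.53 and 10.2 reads per 10000 in SP12wk, at 4.74, 2.07, 4.57 and 3.65 in SP28wk, and at 8.00, 9.53, 9.43 and 3.11 in LP. The SP groups were apart, and 3 of the 4 LP libraries lay with SP12wk. Its log2 fold change was -1.12 (SE 0.48, edgeR adjusted p = 0.721).

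Dad1 and Krtcap2 are subunits of oligosaccharyltransferase, the complex that attaches sugar chains to new proteins in the endoplasmic reticulum. Dad1 stood at 1.63, 3.19, 3.51 and 5.09 reads per 10000 in SP12wk and at 0.395, 1.24, 2.29 and 0.868 in SP28wk. Krtcap2 stood at 2.86, 5.10, 5.02 and 5.93 in SP12wk and at 1.98, 3.32, 1.71 and 1.22 in SP28wk. For each of them 1 SP28wk library reached into the SP12wk range. The log2 fold changes were -1.32 (SE 0.58) for Dad1 and -1.12 (SE 0.53) for Krtcap2, each on shares worth a few reads a library.

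Atpif1, the inhibitor that stops ATP synthase from running in reverse, had the most reads of the 4. Its shares were 25.3, 35.1, 24.6 and 31.4 reads per 10000 in SP12wk, 15.4, 14.1, 13.1 and 11.1 in SP28wk, and 27.8, 5.61, 16.6 and 7.77 in LP. The SP groups were far apart, at means of 29.1 ± 5.00 and 13.4 ± 1.81 (SD, n = 4 each), while LP covered both. The log2 fold change was -0.95 (SE 0.45, edgeR adjusted p = 0.74), or 1.09 below the median of the 796 genes on the log2 scale, and with the 8 SP libraries and library totals it was -1.12 (edgeR adjusted p = 0.0037, the lowest over all alternatives, which reached 1.00). Ndufa3, a complex I subunit named here after its values were seen, was the other gene lower in that fit, at 29.4, 37.6, 28.6 and 33.9 in SP12wk against 23.7, 18.7, 12.3 and 12.5 in SP28wk, with a log2 fold change of -0.97 (edgeR adjusted p = 0.0234, the lowest over all alternatives, which reached 1.00).

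Hibadh, an enzyme of valine breakdown, stood at 11.4, 21.0, 18.1 and 24.9 reads per 10000 in SP12wk and at 10.3, 6.64, 10.3 and 9.38 in SP28wk, without overlap, at a log2 fold change of -0.87 (SE 0.46). Gabarapl1, a protein of the autophagosome membrane, had -1.08 (SE 0.55) with overlapping groups. The other genes with the smallest p on the lower side, Fkbp2, Rpl3, Eef1d and Ubl5, had log2 fold changes between -0.95 and -0.84. Rpl35, a ribosomal protein chosen after its values were seen, stood at 30.7, 32.5, 31.6 and 33.6 in SP12wk and at 20.9, 22.4, 20.3 and 20.7 in SP28wk, and its log2 fold change was -0.44 (SE 0.45, edgeR adjusted p = 0.98) in the fit over the 3 groups. LP replicate 2 was at 3.37 for this gene and the other LP libraries at 21.6 to 28.2, and the spread in that fit includes LP.

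**Figure D3:**
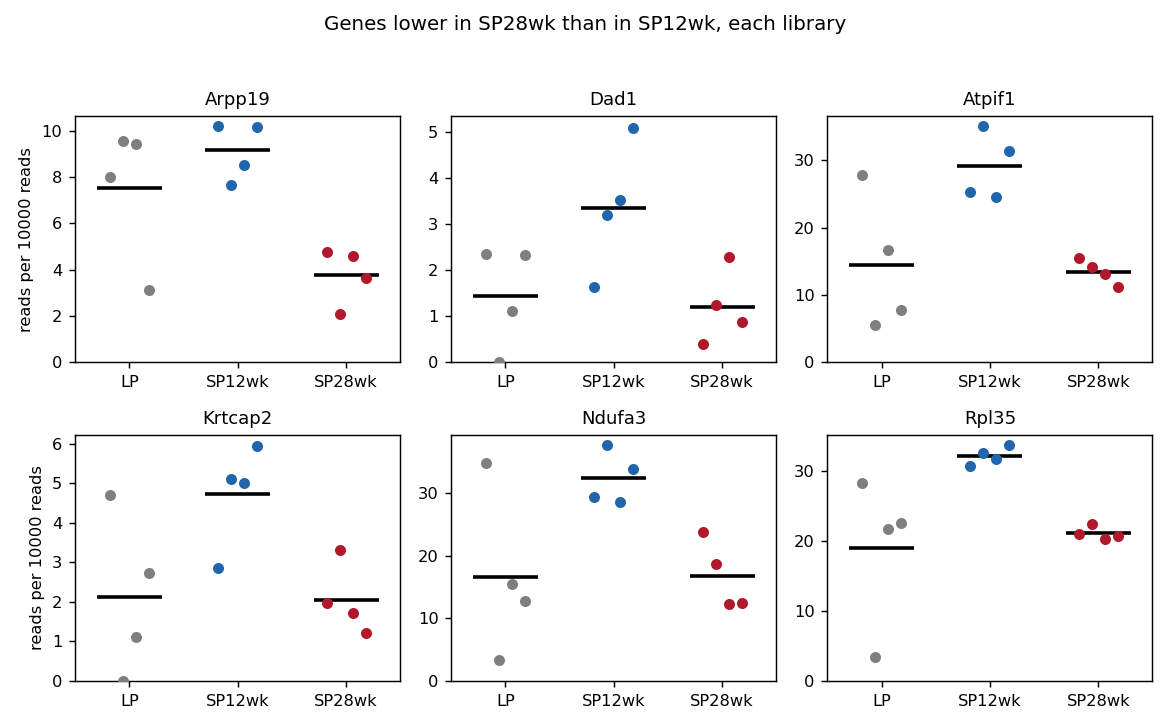
Share of each of the 12 libraries (y axis, reads per 10000 reads of the library) for 6 genes by group, with 1 point per library and a bar at the mean of 4. The 4 SP28wk points lie below the 4 SP12wk points for Arpp19, Atpif1, Ndufa3 and Rpl35, and the LP libraries spread more widely than either SP group for these 4 genes.

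Subunits of the respiratory chain and ATP synthase took a smaller mean share of the reads in SP28wk. The 20 members of complexes II, III and IV summed to 367, 434, 418 and 390 reads per 10000 in SP12wk and to 364, 330, 304 and 314 in SP28wk, and to 443, 88.6, 226 and 342 in LP. With library totals the SP groups did not overlap, but by a narrow gap, and under each of the other scalings tried they overlapped. The 30 members of complex I summed to between 262 and 329 in SP12wk and between 241 and 268 in SP28wk, and the 18 members of the ATP synthase and ADP/ATP translocase list to between 365 and 428 and between 320 and 381, both with overlap. Over the 3 lists together the mean sum was 16.0% lower in SP28wk with library totals and 5.8% lower with TMM-scaled library sizes.

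None of the 68 members of these lists was called in either direction in the fit over the 3 groups, 1 (Ndufb7) was higher and 1 (Atpif1) lower at an unadjusted p under 0.05, and the medians of the lists were -0.19, -0.09 and -0.04 from that of the 796 genes on the log2 scale. With 1 library left out at a time these medians ranged from -0.34 (without SP12wk replicate 1) to -0.09 (without SP12wk replicate 3) for complex I, from -0.21 (without SP12wk replicate 1) to -0.08 for complexes II, III and IV, and from -0.12 (without SP12wk replicate 3) to -0.03 for ATP synthase. In all, 10 of the 68, or 14.7%, had every SP28wk library below every SP12wk library, beside 4.52% of the 796 genes, and 1, Ndufb2, had every SP28wk library above. With TMM-scaled sizes the numbers were 4 lower (5.88%) and 2 higher, beside 1.63% lower and 4.4% higher of the 796 genes. Cox7c, a small subunit of cytochrome c oxidase and the member with most reads, stood at 82.6, 91.8, 65.8 and 71.5 in SP12wk and 63.6, 58.1, 55.4 and 54.2 in SP28wk. Uqcr11, a small subunit of complex III, stood at 13.9, 22.3, 12.5 and 12.7 against 10.7, 11.6, 6.00 and 7.29. Atp5k, a subunit of ATP synthase, stood at 24.1, 29.3, 21.1 and 22.6 against 17.4, 12.0, 13.1 and 10.4. Uqcr11 and Atp5k were named with their values known, as members with separate groups, and not for their reads. In contrast Ndufa4 and Cox4i1 had overlapping groups and log2 fold changes of 0.02 and 0.16.

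The oligosaccharyltransferase and translocon list, the machinery that passes new proteins into the endoplasmic reticulum and adds sugars to them, had 9 members. Their sums were 42.5, 42.7, 33.1 and 43.8 reads per 10000 in SP12wk and 28.1, 27.4, 31.1 and 32.5 in SP28wk, without overlap. Dad1 and Krtcap2 were the 2 members with an unadjusted p under 0.05, both lower, beside 0.503% of the 796 genes lower at that p. Of the 9 members, 6 lay below the median of the 796 genes. The 10 members on the V-ATPase and lysosome list, which hold proton pump subunits and lysosomal proteins such as Cd63, Lamp1 and Ctsd, summed to 59.7, 62.5, 62.7 and 60.2 in SP12wk and to 54.5, 51.9, 41.4 and 45.7 in SP28wk. LP spanned 39.6 to 76.8 for this list and so covered both SP groups. None of the 10 had an unadjusted p under 0.05. With TMM-scaled library sizes the sums of both lists and of complexes II, III and IV overlapped between the groups, while their means stayed lower in SP28wk. As shares of the total over the 796 genes, or with counts summed over transcripts, the sums of both lists stayed apart. Those of complexes II, III and IV overlapped there too.

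**Figure D4:**
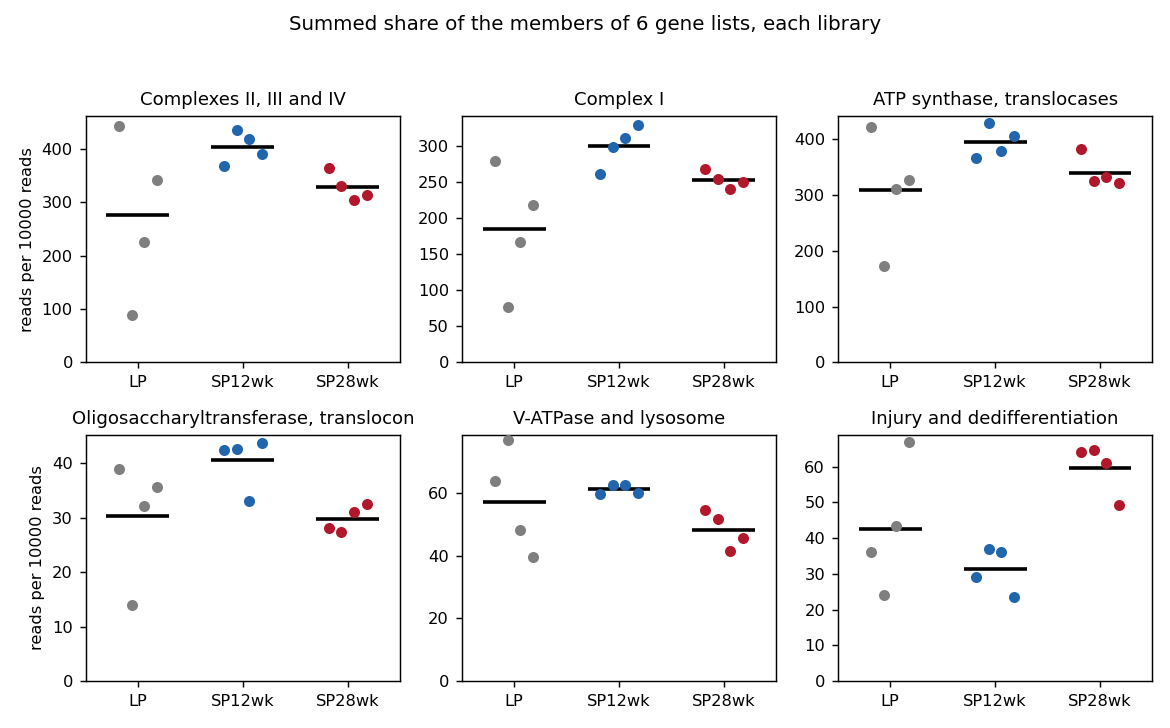
Summed share of the members of 6 gene lists (y axis, reads per 10000 reads of the library) by group, with 1 point per library and a bar at the mean of 4. SP28wk lies below SP12wk without overlap for complexes II, III and IV, for oligosaccharyltransferase and translocon and for V-ATPase and lysosome, and above it for injury and dedifferentiation.

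Of the injury and dedifferentiation list, 3 of 25 symbols reached 60 reads, and their sum was 29.0, 37.0, 36.1 and 23.5 reads per 10000 in SP12wk and 64.0, 64.7, 61.1 and 49.1 in SP28wk. LP spanned 24.1 to 66.8 and overlapped both SP groups. S100a6 made up most of the sum. Tmsb10, which binds actin monomers, stood at 3.27, 3.19, 4.02 and 3.11 against 2.77, 9.13, 7.43 and 6.77, and Ccn2, a secreted matrix-associated growth factor, had a log2 fold change of 0.51 (SE 0.50) with overlap. The other genes of the list had fewer reads. Out of 95462 reads in SP12wk and 141994 in SP28wk, Vim had 11 and 26, S100a11 12 and 26, S100a10 8 and 17, Sox4 1 and 8, Cd24a 11 and 19, Spp1 5 and 6, and Krt18 1 and 2. Of the 13 genes of the list tested, S100a6 and Tmsb10 were the 2 higher at an unadjusted p under 0.05, and none was lower. Of all genes tested, 4.6% were higher and 1.49% lower at that p. The sums did not overlap under any of the scalings tried.

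Ribosomal proteins took the largest share of any list, with sums of 1426 to 1745 reads per 10000 for 79 members in SP12wk and 1457 to 1791 in SP28wk. Rpl41 was the member called, and 3 of the 79 were higher at an unadjusted p under 0.05, beside 6.03% of the 796 genes. The groups did not overlap for 5 members with every SP28wk library above SP12wk and for 5 with every one below. That is 6.33% each way, beside 3.27% and 4.52% of the 796 genes. Among those above was Rps7, at 24.9, 25.5, 29.1 and 24.6 against 34.4, 37.8, 38.6 and 36.6, and among those below was Rpl35. The 51 members above and 28 below the median of the 796 genes included genes with separate groups in both directions. The 17 translation factors had no member with an unadjusted p under 0.05 and sums of 91.0 to 113 and 87.5 to 110 reads per 10000. This depended on the choice of transcript. With counts summed over all transcripts of a gene, their sums were 153 to 185 in SP12wk and 112 to 146 in SP28wk, lower without overlap.

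Transporters of the proximal tubule were measured by few genes. Slc4a4, the sodium bicarbonate cotransporter of its basolateral side, stood at 9.40, 10.8, 5.02 and 4.24 reads per 10000 in SP12wk and at 14.2, 9.96, 9.43 and 14.1 in SP28wk, with a log2 fold change of 0.92 (SE 0.47, edgeR adjusted p = 0.804). Lrp2, the endocytic receptor megalin, had a log2 fold change of -0.15 (SE 0.46), and Aqp1, the water channel, -0.22 (SE 0.50). Atp1b1, the beta subunit of the sodium pump, had 0.42 (SE 0.46), all with overlapping groups. Summed over the lists, the proximal tubule members took 18.7 to 32.5 reads per 10000 in SP12wk and 21.4 to 30.0 in SP28wk, and the thick limb and distal tubule members 28.3 to 41.3 and 26.6 to 37.5. With counts summed over all transcripts of a gene, the proximal tubule means were 52.1 in SP12wk and 72.2 in SP28wk. The thick limb and distal tubule means were then 52.1 and 64.2, and both sums still overlapped.

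The 5 glycolysis and gluconeogenesis members had a median 0.36 below that of the 796 genes on the log2 scale, and the 7 of amino acid and creatine metabolism a median 0.33 above it. Both moved when single libraries were left out, with -0.08 for glycolysis without SP28wk replicate 1 and -0.55 without SP28wk replicate 2, and with 0.09 for amino acid metabolism without SP12wk replicate 1 and 0.52 without SP12wk replicate 3. Glutathione and antioxidant enzymes, with 16 members, summed to 167 to 314 reads per 10000 in SP12wk and 151 to 239 in SP28wk. Gpx1 was the only member with an unadjusted p under 0.05, at 1.04 (SE 0.50), beside 6.03% of the 796 genes higher at that p. Chaperones, with 14 members, summed to 102 to 140 and 94.1 to 110, with overlap and no member under that p.

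**Figure D5:**
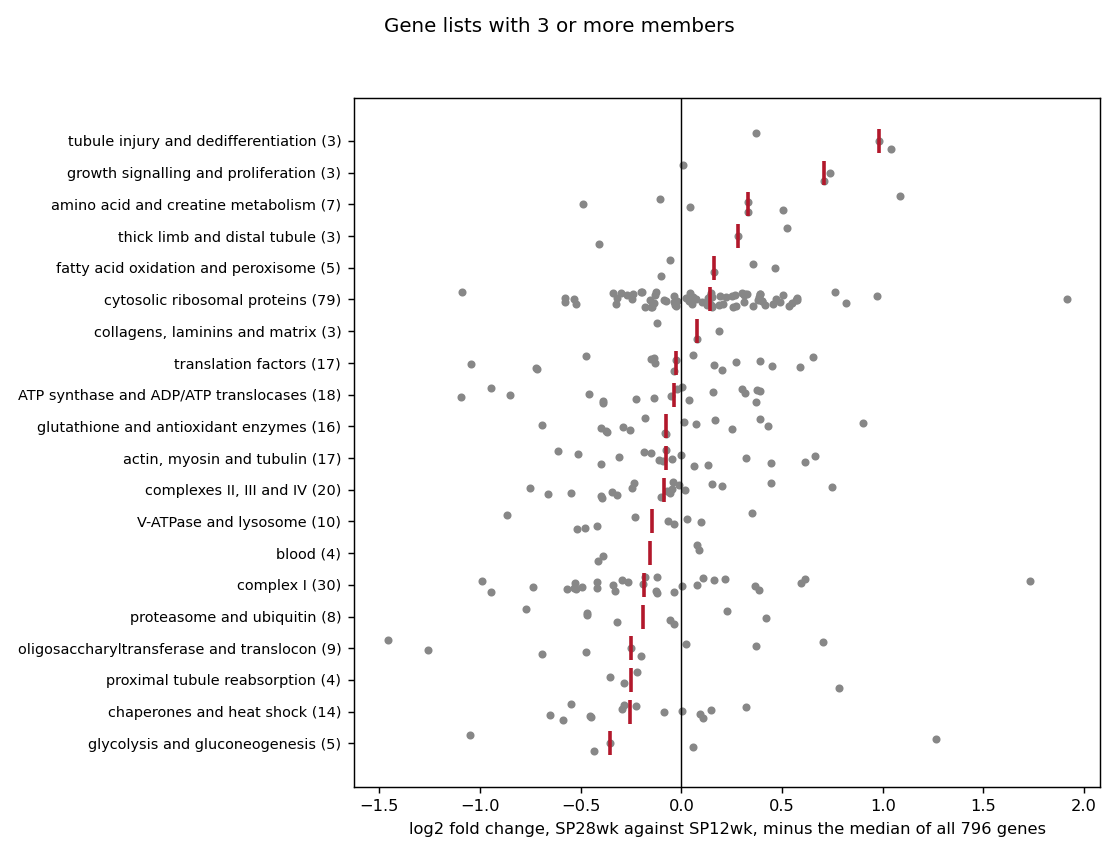
Log2 fold change of SP28wk against SP12wk minus the median of the 796 genes (x axis), 1 grey point per member of 20 gene lists with 3 or more members, with the number of members in parentheses and a red bar at the list's median. Most medians lie within 0.4 of zero, and the widest spread of members within a list is in the ribosomal protein, complex I and glycolysis lists.

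Lists that bear on the photoperiodic signal had too few reads to describe. In the prolactin signalling list only Igfbp3, a binding protein for insulin-like growth factors, reached 60 reads, and Prlr, the prolactin receptor, had 1 read in the 12 libraries. Of thyroid hormone action only Ttr, which carries thyroxine, reached 60, at 0.41 (SE 0.47) with overlap. The circadian clock, immediate early and androgen-responsive lists had no gene with 60 reads, and 0 of their tested genes were called. Of the growth signalling and proliferation list 3 genes reached 60 reads, H2az1, Hmgb1 and Rheb, all at or above the median of the 796 genes and none with an unadjusted p under 0.05. Their sums were 3.82 to 11.3 reads per 10000 in SP12wk and 8.71 to 14.6 in SP28wk, with overlap.

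The labelled tissue was checked against markers. Reads of the proximal tubule (Lrp2, Slc4a4, Aqp1) were present in every SP library. Blood, as 4 alpha and beta globin genes, had sums of 175 to 441 reads per 10000 in SP12wk and 210 to 332 in SP28wk, and Hba-a1 had a log2 fold change of -0.28 (SE 0.47). Immune genes had 94 reads and glomerular and endothelial genes 87 over the 12 libraries, none of them with 60. The collecting duct list had 125 reads, again with no gene at 60, and the adrenal cortex list had 1 read. Of the adipose list only Pck1, which the proximal tubule also expresses, reached 60 reads, at 1.91 to 3.11 reads per 10000 in SP12wk and 0.395 to 4.56 in SP28wk. All genes of that list together summed to 3.96 to 6.37 in SP12wk and 3.16 to 6.22 in SP28wk.

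Of 10 genes chosen for this experiment by the study, a list drawn from these libraries and so not independent, 4 reached 60 reads. Slc25a5, an ADP/ATP translocase, Slc52a2, a riboflavin transporter, Dad1 and Gsta1, a glutathione transferase, summed to 23.6 to 35.9 reads per 10000 in SP12wk and 25.2 to 35.2 in SP28wk. Slc52a2 was higher and Dad1 lower at an unadjusted p under 0.05, beside 6.03% higher and 0.503% lower of the 796 genes. SP12wk replicate 1 had 5.72 reads per 10000 of Slc52a2 and no other SP12wk library more than 0.848, and without that library the gene was called (log2 fold change 3.34, edgeR adjusted p = 0.0235, up to 1.00 over all alternatives). Akap5 and Gm32262, which like Slc52a2 followed Bc1, were called in the same fit, and whether these genes share reads was not tested. The other genes chosen by the study had 7 to 54 reads in all, and the smallest unadjusted p among them was that of Gstm3, with 11 reads in SP12wk and 2 in SP28wk (log2 fold change -2.47, SE 1.03, edgeR adjusted p = 0.686).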

How the data were processed

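Kidney RNA of 12 male hamsters was read by nanopore sequencing on 1 flow cell. Guppy, Porechop, Filtlong and Minimap2 with the mouse genome were used by the authors, who deposited an estimated count per mouse transcript without normalization, of which 2868 values were not whole. How reads were counted and shared among transcripts was not given in the sources used here, although the submitters' processing notes name Salmon, and the kit is called direct cDNA in the methods and PCR-cDNA in the labels.

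For each gene the transcript with the highest total over the 12 libraries was kept. Counts were rounded and fitted in R 4.3.3 with edgeR 4.0.16 (TMM, quasi-likelihood test, LP, SP12wk and SP28wk in 1 model without covariates), keeping genes found in at least 4 of 12 libraries, with Benjamini-Hochberg adjustment over all genes tested and a threshold of 0.05. The SE is the log2 fold change divided by the square root of F. The model was tested on simulated data. Alternatives used limma 3.58.1 and DESeq2 1.42.0, among others. Replicate pairs differed by 1.78 to 4.49 times the sampling variance, so none was a copy.

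The members and lists were chosen with earlier results of these data known. Named genes were the 12 of smallest p on the higher and on the lower side, the 10 with the most reads, up to 4 per list with the most reads, the genes plotted by the study and any gene called. Uqcr11, Atp5k, Cox4i1, Ndufb2 and Rps7, among others, were outside these rules and were named with their values known. Gene lists got no test. No sequence is printed, since none was at hand.

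Some genes are not reported here.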

Additional observations from a re-analysis of the deposited data

Results flagged for a closer look

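In groups of 4 libraries, a value is given here where the gap between the highest or lowest library and its neighbour was a larger part of the group's range than Dixon's 95% critical value. Of 150 groups examined 8 did so, and chance gives about 1 in 20. In SP28wk, replicate 4 was low for Bc1, at 6.95 reads per 10000 against 20.3 in the next library (0.835 of the range), and replicate 1 was high for Selenop, at 72.7 against 35.1 (0.886). In SP12wk, replicate 1 was high for Slc52a2, at 5.72 against 0.848 (0.852), and replicate 3 was low for the oligosaccharyltransferase and translocon sum, at 33.1 against 42.5 (0.879). In LP, replicate 4 was high for Spp2, at 6.99 against 1.12 (0.84), and was the only LP library with reads of Akr1b3 (0.388 per 10000) and Gm6644 (0.777), a gap of 1 range for each. LP replicate 2 was high for the growth signalling and proliferation sum, at 15.1 against 10.9 (0.928).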

How the results depend on the processing

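Of the 796 genes, 5 were called higher, and no alternative turned a called direction. The number called was 4 without a filter, with TMMwsp scaling and with library totals, 2 with a count in at least 8 of 12 libraries, with a fit on the genes of at least 60 reads, with limma-voom and with DESeq2, 0 with counts summed over transcripts, 20 with the 8 SP libraries alone, and 15 with the 8 SP libraries and library totals, where 2 were called lower. Leaving out 1 library at a time gave 2 to 10 calls, with 2 without SP12wk replicate 2, SP12wk replicate 4, SP28wk replicate 3 or SP28wk replicate 4, and 10 without LP replicate 2. Snora73a and Snora73b were among the calls under each setting but the sum over transcripts.

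At an unadjusted p under 0.05 the 48 higher and 4 lower genes became 31 and 8 with the stricter filter, 22 and 16 in the fit on genes of at least 60 reads, 31 and 14 with TMMwsp scaling, 30 and 20 with library totals, 11 and 2 with counts summed over transcripts, 83 and 18 with the 8 SP libraries, 49 and 50 with the 8 SP libraries and library totals, and 20 and 12 with DESeq2. Leaving out 1 library gave 25 to 61 higher and 1 to 21 lower. The 36 genes with all SP28wk libraries below SP12wk became 13 with TMM-scaled library sizes. The cause was not tested. The fits without LP replicate 2 and with both the 8 SP libraries and library totals were chosen after seeing the data.

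The replicate numbers are shared by the groups. Each library was 1 animal, killed after its own time in short days, so that no animal was in both groups. Same-numbered SP12wk and SP28wk libraries correlated at 0.419, -0.161, 0.295 and -0.031 in their deviations, and the other pairs at -0.461 to 0.306. So few correlations cannot settle whether the numbers carry a pairing. With a replicate block 4 genes were called, and 49 were higher and 5 lower at an unadjusted p under 0.05. The values of single genes and lists were within their threshold or spread under 1138 of 1228 alternatives, with 45 calls lost, 24 gained and 21 values moved. This total does not measure stability, since an uncalled gene counted as unchanged while it stayed uncalled, whatever its fold change. The log2 fold change of Shfl, for 1, ran from -1.66 to 2.95 and counted as unchanged throughout. All the calls lost were of the 7 called genes, and the numbers of genes called are not part of the total. Depth limits genes of few reads most, since 1 read was worth up to 0.637 per 10000 in the SP libraries.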

Other observations

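Selenoprotein genes were looked at after the values of Selenop had been seen, so that what follows is a description. Of them, 6 had at least 60 reads. Selenok, a protein of the endoplasmic reticulum membrane, stood at 0, 0.637, 1.00 and 1.41 reads per 10000 in SP12wk and at 2.37, 2.90, 3.14 and 2.78 in SP28wk, without overlap, with a log2 fold change of 1.87 (SE 0.65, edgeR adjusted p = 0.614). Gpx1, the glutathione peroxidase of the cytosol, had a log2 fold change of 1.04 (SE 0.50) with overlapping groups. Gpx4, Selenof and Gpx3 had log2 fold changes of 0.57, 0.71 and 0.06, each with an adjusted p of 0.98. Gpx3, which the proximal tubule secretes into plasma, had the most reads of the 6, 1734, and stood at 69.1, 58.0, 75.3 and 42.1 in SP12wk and at 43.1, 56.4, 30.6 and 88.7 in SP28wk. Gpx3 thus overlapped fully while Selenop was apart.

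Rn4.5s, a small repeat-derived RNA, was second to Gm20594 in reads, and with Gm40367, LOC115490435 and Gm34755 it varied together over the 12 libraries (r of at least 0.948). It stood at 203, 70.1, 46.7 and 120 reads per 10000 in SP12wk and at 136, 181, 30.3 and 74.2 in SP28wk, with a log2 fold change of 0.04 (SE 0.48).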
